A study of Homo sapiens with 9 samples.

Results

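The interferon-stimulated genes examined here were 48 named genes whose transcription is known to rise when a cell is exposed to interferon. They were taken as the rows of the count table that carry 1 of the 48 names. All 48 were among the 61311 rows, and 47 of them were among the 15154 genes that passed the filter on low counts and were tested. The remaining member, MX2, a GTPase that blocks HIV after entry, had a count of 0 or 1 in every library and was not tested.

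Bulk mRNA sequencing was performed on HaCaT cells, a spontaneously immortalized line of human keratinocytes, all labelled as wild type. The 3 groups were control cells that received no UVA (NC), cells irradiated with UVA at 5 J/cm2 (UVA), and cells given the same 5 J/cm2 of UVA and then an extract of the plant Coreopsis tinctoria (CT), with 3 libraries in each group. No group received the extract without UVA, so an effect of the extract could be read only in irradiated cells. Whether the 3 libraries of each group were grown as separate cultures is not stated, and the p-values therefore cover no more than the spread among these libraries, which may be technical.

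Library totals ranged from 16390289 to 21971215 counts. All 12 keratinocyte markers examined were tested, and their summed level lay between 6666 and 9530 CPM (counts scaled to the same effective library size for every library) in the 9 libraries. Leukocyte markers summed to 12.9 to 15.0 CPM in NC, 16.4 to 20.9 CPM in UVA and 15.6 to 19.5 CPM in CT. CD8A, CD1A and CD207 were at 0 throughout, and the 2 leukocyte markers tested were CD68 and CD74. CD68, at 157 to 335 counts per library, was higher in UVA than in NC (log2 fold change 0.79, edgeR adjusted p = 0.000115). CD74 gave -0.68 (edgeR adjusted p = 0.0728). Fibroblast markers gave 19 to 59 counts per library, with PDGFRA at 0, and melanocyte markers gave 83 to 137 counts, with TYR at 0. Those tested were COL1A1 and COL3A1, and PMEL, MLANA and MITF. COL3A1, at 3 to 26 counts per library, was lower in UVA than in NC (log2 fold change -1.51, edgeR adjusted p = 0.0212).

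Interferons bind receptors at the cell surface and activate the kinases JAK1 and TYK2. These phosphorylate STAT proteins, among them STAT2, which joins IRF9 in ISGF3, the complex that binds the interferon-stimulated response element in the promoters of target genes. The targets include enzymes and binding proteins that act on viral RNA, block viral entry, attach the ubiquitin-like protein ISG15 to other proteins, or carry the interferon signal itself. In the epidermis, keratinocytes make interferon kappa constitutively, and many interferon-stimulated genes are transcribed at a low level in the absence of infection.

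The sequence that most members share was looked for in the promoters, here the 250 bases before to 50 bases after each transcription start (RefSeq, GRCh38.p14). A promoter was available for 38 of the 48 members, in 53 windows. IFIT2, IFITM2, MX2, OAS2, OASL, IRF7, DHX58, USP18, GBP2 and PML were not matched. The core of the response element was searched as 2 copies of GAAA separated by any 2 bases, or TTTC in the same arrangement on the other strand, and was present in 26 of the 38 members (68.4%), against 4.38% of all 27305 gene symbols and 3.57% of all 35116 windows. A gamma-activated site core, TTC and GAA separated by any 3 bases (read alike on both strands), was present in 10 of the 38 members (26.3%), against 9.38% of all gene symbols and 7.66% of all windows. The activated site can overlap the response element. The stretches that hold the first response element of a window are shown for the 7 members with a lower level after UVA that have one, each 5′ to 3′ on the strand of the gene, with the element in capitals.
PARP9, chr3:122564322-122564351 (-): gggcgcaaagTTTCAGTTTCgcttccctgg
DTX3L, chr3:122564322-122564351 (+): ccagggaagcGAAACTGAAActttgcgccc
PARP14, chr3:122680800-122680829 (+): tccaggaaacGAAAGCGAAAgagtcaaagt
OAS3, chr12:112938321-112938350 (+): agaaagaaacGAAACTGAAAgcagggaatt
IFITM3, chr11:320893-320922 (-): caaatgccagGAAAAGGAAActgttgagaa
SAMD9, chr7:93118096-93118125 (-): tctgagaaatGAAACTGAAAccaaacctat
EIF2AK2, chr2:37156967-37156996 (-): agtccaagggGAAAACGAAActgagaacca
PARP9 and DTX3L are transcribed away from each other, and their stretches are the same 30 bases of chromosome 3 read on opposite strands. For comparison, the stretches of 4 members with no difference after UVA are given in the same way.
IFIT1, chr10:89392497-89392526 (+): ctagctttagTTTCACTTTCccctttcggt
IFIT3, chr10:89332425-89332454 (+): acagattctgTTTCAGTTTCccctcaagag
ISG15, chr1:1013374-1013409 (+): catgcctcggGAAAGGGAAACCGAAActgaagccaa
PARP12, chr7:140062942-140062971 (-): ccggggccgcTTTCGGTTTCgtttcccgcc
These 4 hold the element in the same form. In ISG15, the element was present as overlapping copies. By direction of change, the element was found in 7 of the 15 matched members that were lower after UVA (46.7%) and in 19 of the 23 matched members that were neither higher nor lower (82.6%). The activated site was found in 4 of those 15 (26.7%) and 6 of those 23 (26.1%). A match describes the letters in the window and not a site in use. Nor does the lack of a match show that a response element is absent, since only a spacer of 2 bases was searched. OAS1 and CMPK2, called lower after UVA, and XAF1 and IFI35, called neither way, were counted as without the element. Their windows hold copies of GAAA or TTTC separated by a single base.

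Whole windows are given for 3 members that fell after UVA, to show the element in its surroundings. PARP9 and IFITM3 had the largest falls among the called members whose window held a match to the element as searched. SAMD9L fell more than both, and its window held no match to the element searched.
PARP9, chr3:122564251-122564550 (-): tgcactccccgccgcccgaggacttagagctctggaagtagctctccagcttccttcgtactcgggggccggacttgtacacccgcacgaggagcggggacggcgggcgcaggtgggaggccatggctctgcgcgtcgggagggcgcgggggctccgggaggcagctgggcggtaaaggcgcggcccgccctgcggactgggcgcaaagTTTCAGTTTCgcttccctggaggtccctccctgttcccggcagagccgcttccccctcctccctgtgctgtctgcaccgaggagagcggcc
IFITM3, chr11:320811-321110 (-): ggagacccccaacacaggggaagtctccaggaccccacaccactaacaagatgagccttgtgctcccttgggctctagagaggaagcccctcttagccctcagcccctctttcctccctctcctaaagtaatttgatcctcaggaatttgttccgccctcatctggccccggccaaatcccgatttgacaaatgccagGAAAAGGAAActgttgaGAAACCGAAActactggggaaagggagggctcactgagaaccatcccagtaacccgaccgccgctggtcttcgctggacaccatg
SAMD9L, chr7:93148336-93148635 (-): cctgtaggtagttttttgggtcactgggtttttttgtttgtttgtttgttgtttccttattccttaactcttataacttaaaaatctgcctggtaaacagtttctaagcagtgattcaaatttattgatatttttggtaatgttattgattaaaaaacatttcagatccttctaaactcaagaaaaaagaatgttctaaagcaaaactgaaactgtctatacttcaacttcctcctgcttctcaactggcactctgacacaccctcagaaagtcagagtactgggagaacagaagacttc
The element began at position -41 from the start in PARP9 and at -52 and -35 in IFITM3. PARP9 has another window in the table, without the element.

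**Figure D1:**
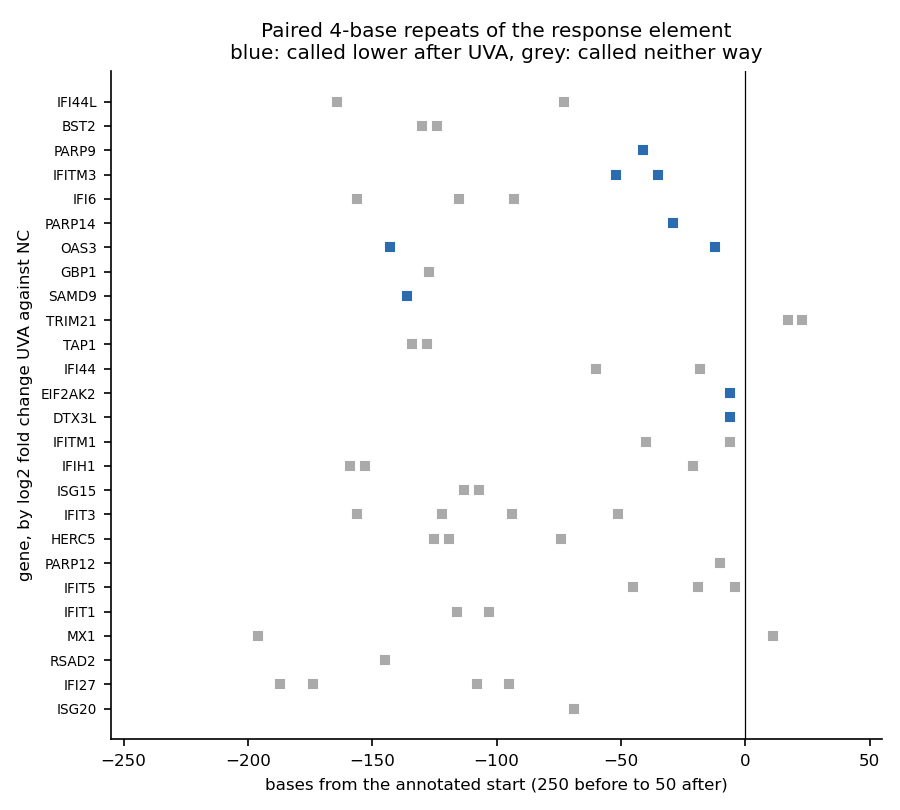
Position of each match to the response element core (x axis, bases from the transcription start) in the matched promoter windows of members, with 1 line per gene (y axis, ordered by log2 fold change), members called lower in UVA against NC in blue and the others in grey. Matches of blue genes lie between -143 in OAS3 and -6 in EIF2AK2 and DTX3L, and those of grey genes between -196 in MX1 and 23 in TRIM21.

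The first comparison asked how UVA alone altered these genes. After UVA, 17 of the 47 tested members were lower than in control cells (36.2%) and 1 was higher, while 29 passed in neither direction (edgeR quasi-likelihood test, Benjamini-Hochberg adjusted p under 0.05 over all 15154 genes). Across all tested genes, 10.6% were lower and 10.5% were higher in the same comparison. The median log2 fold change of the members was -0.15, against 0.00 for all tested genes, and 37 of the 47 had a negative value. Of the 17 lower calls, 11 held in all 17 alternative fits, and the other 6 (IRF1, IRF9, DTX3L, OAS2, CMPK2 and EIF2AK2) were lost in at least 1. Without NC 3 the count was 11 lower members, beside 6.93% of all tested genes. Summed keratinocyte markers moved in the same direction, from 8075 to 9530 CPM in NC to 6666 to 7225 CPM in UVA, with 9 of the 12 lower and COL17A1 higher, and their part in the result was not tested. In bulk libraries, fewer cells that transcribe a gene and less RNA of it per cell cannot be told apart.

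**Figure D2:**
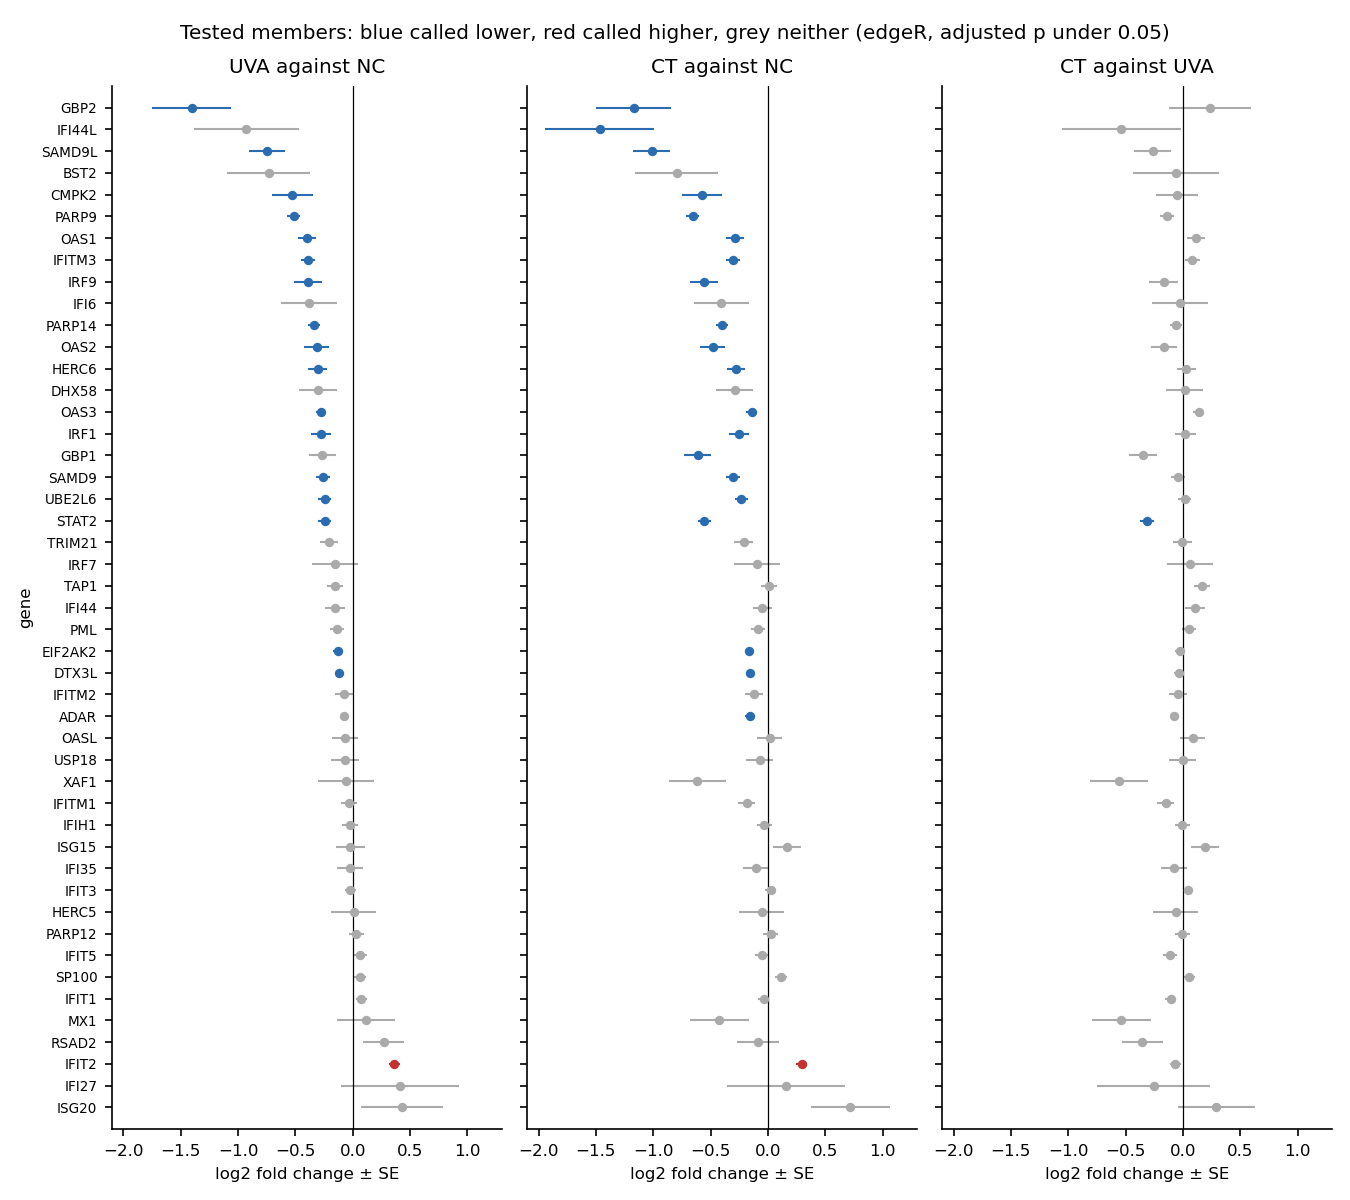
Log2 fold change ± SE (x axes) of each of the 47 tested members (y axis, ordered by UVA against NC) in the 3 comparisons, with members called lower in blue, called higher in red and neither in grey. UVA against NC holds 17 blue points and 1 red point, CT against NC holds 20 and 1, and CT against UVA holds STAT2 as its single coloured point.

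The transcription factors of the pathway were mostly lower. STAT2, the subunit of ISGF3 that carries its activation domain, measured 67.9, 71.9 and 72.1 CPM in the NC libraries, 61.1, 59.2 and 58.6 CPM in UVA, and 49.98, 44.24 and 49.89 CPM in CT. The 3 groups did not overlap, with NC highest and CT lowest. Its log2 fold change in UVA against NC was -0.24 (SE 0.06, adjusted p = 0.00506).

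IRF9, the subunit of ISGF3 that contacts DNA, measured 10.4, 11.1 and 12.2 CPM in NC, 8.22, 7.91 and 9.56 CPM in UVA, and 7.64, 7.27 and 7.98 CPM in CT. All UVA and CT libraries lay below the lowest NC library. The log2 fold change in UVA was -0.39 (SE 0.12, adjusted p = 0.0284), and the call was lost without NC 2, NC 3, UVA 1 or UVA 2, with an adjusted p of up to 0.121. In the annotation, IRF9 shares 1838 exonic bases on the same strand with AL136295.5, so part of its count depends on how shared reads were assigned.

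IRF1, a factor induced strongly by interferon gamma, went from a mean of 84.9 ± 11.1 CPM (SD, n = 3) in NC to 70.0 ± 4.12 CPM in UVA, with a log2 fold change of -0.28 (adjusted p = 0.0452). NC 1, at 72.7 CPM, lay within the UVA range. The call was lost in 10 of the 17 alternative fits, with an adjusted p of up to 0.159. It was lost without any of 6 libraries (NC 2, NC 3, UVA 1, UVA 2, UVA 3 or CT 2). The other losses were under limma-voom, library size alone, the compared groups alone and a replicate block. IRF7, which amplifies the type I interferon response, was not called, at a mean of 3.98 CPM in NC and 3.59 CPM in UVA.

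PARP9, PARP14 and DTX3L fell together. PARP9 is a macrodomain protein that pairs with the ubiquitin ligase DTX3L. It measured 117, 130 and 141 CPM in NC, 86.8, 92.0 and 92.4 CPM in UVA, and 85.7, 82.3 and 78.2 CPM in CT. Every irradiated library lay below every control library, and the mean went from 129 ± 11.6 CPM (SD, n = 3) to 90.4 ± 3.15 CPM after UVA. The log2 fold change of -0.52 (SE 0.06, adjusted p = 9.02e-06) had the smallest adjusted p of any member in this comparison.

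PARP14, a mono-ADP-ribosyltransferase with macrodomains, measured 247, 264 and 286 CPM in NC, 209, 214 and 207 CPM in UVA, and 214, 193 and 196 CPM in CT. NC again stood above both irradiated groups, which overlapped each other. Its log2 fold change after UVA was -0.34 (SE 0.05, adjusted p = 0.000132).

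DTX3L changed less than its partner, from 281 ± 7.94 to 258 ± 0.95 CPM (SD, n = 3), a log2 fold change of -0.12 (adjusted p = 0.0283). Its call was lost without any of NC 2, NC 3, UVA 1, UVA 2 or UVA 3, and with no low-count filter, with an adjusted p of up to 0.123. The ratio of PARP9 to DTX3L counts was 0.431 to 0.488 in NC, 0.335 to 0.359 in UVA and 0.315 to 0.334 in CT, without overlap between the groups and without a test. Exons of the 2 genes share 217 bases on opposite strands, and reads there cannot be assigned to either gene where strand was not used in counting. PARP12, a zinc finger member of the same enzyme family, was not called, at 38.1 ± 0.25 CPM in NC and 38.9 ± 1.67 CPM in UVA (SD, n = 3).

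**Figure D3:**
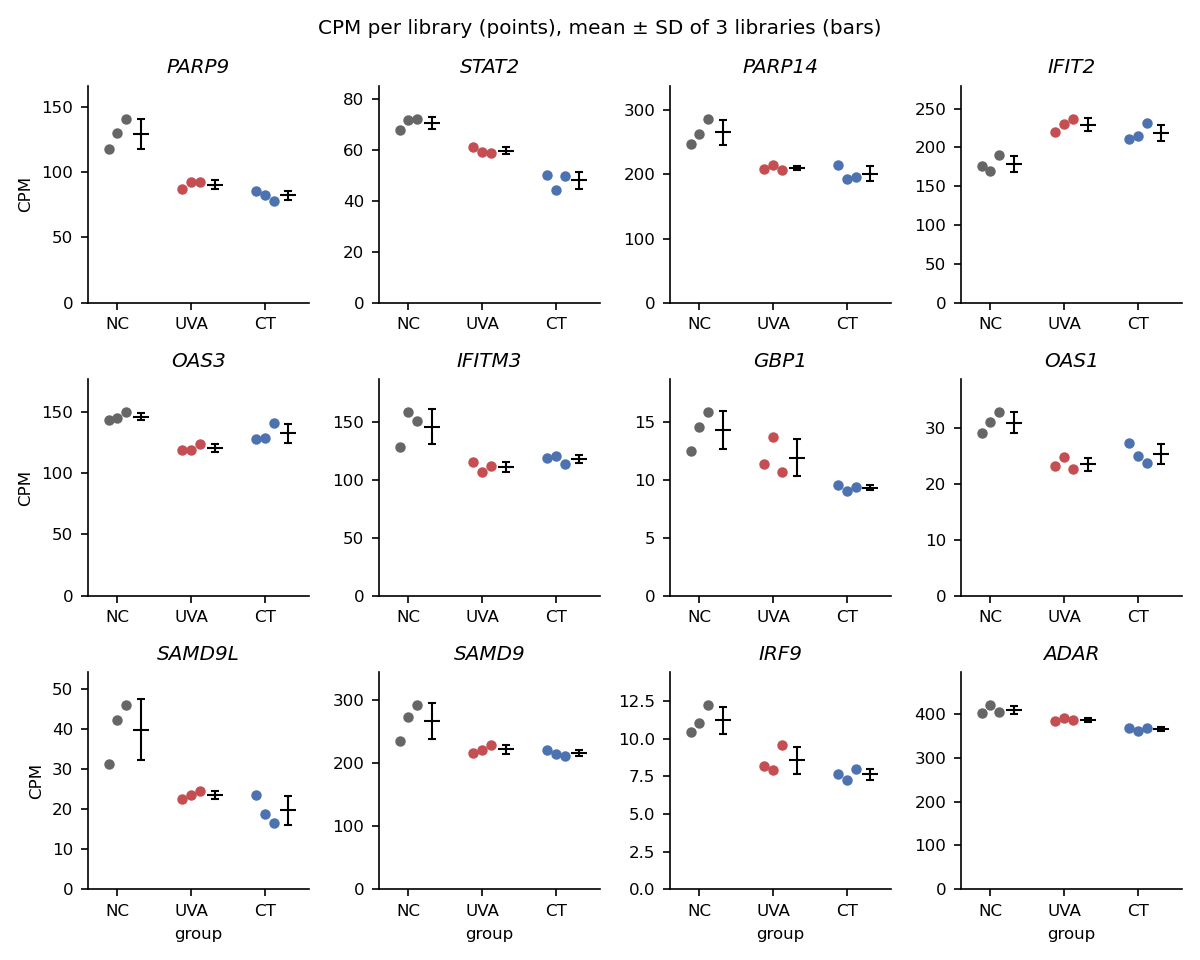
CPM per library (points) with the group mean ± SD (bars, n = 3 libraries) for the 12 members with the smallest adjusted p in any comparison, with the groups on the x axes and each y axis starting at 0. IFIT2 is the panel in which UVA and CT lie above NC, and in STAT2 the 3 groups are stepwise, from 70.6 to 59.6 to 48.0 CPM on average.

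The oligoadenylate synthetases make a second messenger of the antiviral response when they sense double-stranded RNA. OAS3 measured 144, 145 and 150 CPM in NC, 119, 119 and 124 CPM in UVA, and 127, 129 and 141 CPM in CT. UVA lay lowest without overlapping either other group, and CT lay between. After UVA the log2 fold change was -0.28 (SE 0.05, adjusted p = 0.000298).

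OAS1 measured 29.1, 31.0 and 32.8 CPM in NC, 23.1, 24.7 and 22.6 CPM in UVA, and 27.25, 25.01 and 23.75 CPM in CT. NC stood above both other groups, and its log2 fold change after UVA was -0.40 (SE 0.08, adjusted p = 0.0012). OAS2 was also called, at a log2 fold change of -0.31 (adjusted p = 0.0476), close to the threshold. That call was lost in 12 of the 17 alternative fits, with an adjusted p of up to 0.2298. Some of these left out NC 2, NC 3, any UVA library or CT 2. The others used DESeq2, limma-voom, library size alone, no low-count filter, the compared groups alone or a replicate block. OASL, a family member that lacks synthetase activity, gave a log2 fold change of -0.07 (adjusted p = 0.722).

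SAMD9 and SAMD9L are neighbouring genes on chromosome 7 whose products restrict poxviruses and slow cell growth. SAMD9L measured 31.2, 42.2 and 45.8 CPM in NC, 22.6, 23.6 and 24.6 CPM in UVA, and 23.5, 18.8 and 16.6 CPM in CT. NC varied widely but stayed above all irradiated libraries. Its log2 fold change after UVA was -0.75 (SE 0.16, adjusted p = 0.00912).

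SAMD9 measured 235, 272 and 291 CPM in NC, 216, 220 and 229 CPM in UVA, and 221, 214 and 211 CPM in CT. NC 1 was again the lowest control library, and the groups NC and UVA did not overlap. This gave a log2 fold change of -0.26 (SE 0.06, adjusted p = 0.0066).

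IFITM proteins sit in endosomal and plasma membranes and block fusion of entering viruses. IFITM3 measured 129, 159 and 151 CPM in NC, 116, 107 and 112 CPM in UVA, and 120, 121 and 114 CPM in CT. The controls lay above all 6 irradiated libraries. The log2 fold change after UVA was -0.39 (SE 0.06, adjusted p = 0.000355). IFITM1 and IFITM2 were not called, with log2 fold changes of -0.03 and -0.08. The 3 genes are close paralogs whose reads may be divided between them, and IFITM1 and IFITM2 share 351 annotated exonic bases.

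In the ISG15 system, the conjugating enzyme UBE2L6 and the ligase-like gene HERC6 were lower, while ISG15, its protease USP18 and its main human ligase HERC5 were not called. UBE2L6 averaged 88.6 ± 5.74 CPM in NC and 74.7 ± 1.62 CPM in UVA (SD, n = 3), a log2 fold change of -0.25 (adjusted p = 0.00275). HERC6 averaged 23.4 ± 0.67 CPM in NC and 19.0 ± 0.98 CPM in UVA, a log2 fold change of -0.31 (adjusted p = 0.01). ISG15 itself measured 7.87 to 8.46 CPM in NC and 7.49 to 8.67 CPM in UVA, and the 2 groups overlapped.

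The guanylate-binding protein GBP2, an interferon-inducible GTPase that attacks pathogen-holding vacuoles, had the largest fall among called members. It measured 3.86, 5.30 and 6.99 CPM in NC, 3.06, 0.852 and 2.10 CPM in UVA, and 2.499, 2.690 and 1.960 CPM in CT. All irradiated libraries lay below NC, at counts of 14 to 55 per library. After UVA this gave a log2 fold change of -1.41 (SE 0.34, adjusted p = 0.011). In the annotation, GBP2 shares 621 exonic bases on the same strand with GBP7, which was not among the tested genes.

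EIF2AK2, the double-stranded RNA-dependent kinase PKR, averaged 212 ± 5.61 CPM in NC and 194 ± 7.61 CPM in UVA (SD, n = 3), a log2 fold change of -0.13 (adjusted p = 0.0299). The call was lost without NC 1, NC 3, UVA 1 or UVA 3, with an adjusted p of up to 0.156. CMPK2, a mitochondrial nucleotide kinase, averaged 5.61 ± 0.56 CPM in NC and 3.88 ± 0.79 CPM in UVA, a log2 fold change of -0.53 (adjusted p = 0.0392). Its call was lost without NC 2, NC 3, UVA 2, UVA 3 or CT 2, with an adjusted p of up to 0.154. It was also lost under DESeq2, with no low-count filter and with a replicate block. RSAD2 (viperin), which is transcribed away from CMPK2 and makes a chain-terminating nucleotide, was not called, at a log2 fold change of 0.27 (adjusted p = 0.314).

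IFIT2 was the single member that rose. The IFIT proteins are RNA-binding, and IFIT1 recognizes viral RNA caps while IFIT2 binds AU-rich RNA and forms complexes with IFIT1 and IFIT3. IFIT2 measured 176, 170 and 190 CPM in NC, 221, 231 and 237 CPM in UVA, and 211, 215 and 231 CPM in CT. All irradiated libraries lay above all controls, and the mean went from 179 ± 10.3 to 229 ± 8.13 CPM (SD, n = 3) after UVA. The log2 fold change was 0.36 (SE 0.05, adjusted p = 3.65e-05), and the call held in all 17 alternative fits. IFIT2 and LIPA, which measured 601 CPM in NC and 518 CPM in UVA, share 65 exonic bases on opposite strands. IFIT2 also shares 356 exonic bases on the same strand with AL353751.1, which was not among the tested genes, so part of its count depends on how shared reads were assigned.

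The other IFIT genes, which lie next to IFIT2 on chromosome 10, did not pass the test. IFIT1 measured 125, 126 and 132 CPM in NC and 126, 144 and 133 CPM in UVA, with a log2 fold change of 0.07 (adjusted p = 0.302). IFIT3 measured 126, 128 and 120 CPM in NC and 120, 119 and 129 CPM in UVA, with a log2 fold change of -0.02 (adjusted p = 0.802). The groups overlapped for both genes. IFIT5, which binds RNA with a 5′ phosphate, gave a log2 fold change of 0.06.

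Among the members without a call in any of the 3 comparisons, the most abundant besides IFIT1 and IFIT3 were SP100 and IFITM1. SP100, a nuclear body protein, measured 79.5 ± 3.67 CPM in NC and 82.9 ± 2.39 CPM in UVA (SD, n = 3), a log2 fold change of 0.06 (adjusted p = 0.446). IFITM1 measured 62.4 ± 6.11 and 60.8 ± 2.43 CPM. The IFI genes (IFI6, IFI27, IFI35, IFI44 and IFI44L) ranged from -0.93 to 0.41 in log2 fold change, with IFI27 and IFI44L at 4 to 23 counts per library. The RNA sensors IFIH1 (MDA5) and DHX58 (LGP2) gave -0.02 and -0.30. BST2 (tetherin), TRIM21 and TAP1 ranged from -0.73 to -0.16, MX1 gave 0.12, XAF1 -0.06, PML -0.14 and ISG20 0.43. None of the genes in this paragraph was called in UVA against NC. IFI44L alone among them was called in another comparison, lower in CT against NC.

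The second comparison set CT-treated UVA-irradiated cells against control cells, and so covers the extract and UVA together. In it 20 of the 47 tested members were lower (42.6%), 1 was higher and 26 passed in neither direction, beside 14.2% lower and 15.7% higher across all tested genes. The median log2 fold change was -0.16, against 0.00 for all tested genes. This comparison uses the same NC libraries as UVA against NC, so the values stand side by side and are not independent. The 17 members lower after UVA were all lower here, joined by GBP1, ADAR and IFI44L, and IFIT2 was higher in both. Of the 20 lower calls, 14 held in all alternative fits in which the gene was tested. Calls for IRF1, HERC6, CMPK2, GBP2, IFI44L and OAS3 were lost in at least 1. Summed keratinocyte markers were at 6803 to 7020 CPM in CT, with 7 of 12 lower and 1 higher than in NC, and their part in the result was not tested.

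PARP9 gave a log2 fold change of -0.66 (adjusted p = 2.66e-07), from 129 ± 11.6 CPM in NC to 82.1 ± 3.78 CPM in CT (SD, n = 3). STAT2 gave -0.56 (adjusted p = 1.45e-06), and PARP14 gave -0.40 (adjusted p = 1.23e-05). SAMD9L gave -1.01 (SE 0.16, adjusted p = 0.00123) and SAMD9 gave -0.30 (adjusted p = 0.00157). These 5 genes therefore had more negative values in CT against NC than in UVA against NC, and of them only STAT2 passed the direct test of CT against UVA.

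OAS3, OAS1 and IFITM3 lay closer to NC in CT than in UVA. OAS3 gave -0.14 (adjusted p = 0.0244) in CT against NC, and the call was lost without NC 3, CT 1 or CT 2, with an adjusted p of up to 0.101. OAS1 gave -0.29 (adjusted p = 0.00767) and IFITM3 gave -0.31 (adjusted p = 0.00121). In CT against UVA the 3 genes had log2 fold changes of 0.14, 0.11 and 0.08, none of them called (adjusted p = 0.174, 0.589 and 0.614).

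GBP1, an interferon gamma-induced GTPase that coats bacteria, measured 12.5, 14.5 and 15.8 CPM in NC, 11.3, 13.7 and 10.6 CPM in UVA, and 9.56, 9.07 and 9.33 CPM in CT. UVA overlapped NC, whereas CT lay below all other libraries. The log2 fold change was -0.27 (adjusted p = 0.117) in UVA against NC, -0.61 (SE 0.12, adjusted p = 0.000594) in CT against NC, and -0.35 (adjusted p = 0.183) in CT against UVA.

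ADAR, which converts adenosine to inosine in double-stranded RNA, measured 403, 420 and 406 CPM in NC, 384, 393 and 387 CPM in UVA, and 369, 362 and 369 CPM in CT. The 3 groups did not overlap, and the differences were small against the level. Its log2 fold change was -0.08 (adjusted p = 0.135) in UVA against NC and -0.16 (SE 0.04, adjusted p = 0.00223) in CT against NC. IFI44L gave -1.47 (SE 0.48, adjusted p = 0.0243) in CT against NC at counts of 4 to 23 per library. That call was lost without NC 2 or CT 2, under DESeq2 and with no filter on low counts, with an adjusted p of up to 0.172.

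IRF9 reached -0.56 (adjusted p = 0.00169) and OAS2 reached -0.48 (adjusted p = 0.00232) in CT against NC, and both held in all alternative fits there. IRF1 gave -0.25 (adjusted p = 0.0469), a call lost without NC 2, NC 3, CT 2, CT 3 or any UVA library, with an adjusted p of up to 0.169. The IRF1 call was also lost under limma-voom, with the compared groups alone and with a replicate block. HERC6 was lost without CT 2 (adjusted p = 0.0523), CMPK2 without NC 3 (0.0774), and GBP2 without NC 2, NC 3 or CT 3 (up to 0.0829). IFIT2 remained above NC, at 219 ± 10.5 CPM in CT (SD, n = 3) and a log2 fold change of 0.30 (SE 0.05, adjusted p = 0.000121).

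The third comparison asked what the extract changed in irradiated cells. In CT against UVA, 1 of the 47 tested members was lower, STAT2 (2.13%), and 0 were higher by edgeR, DESeq2 or limma-voom, beside 0.614% lower and 0.944% higher across all tested genes. Before adjustment, 2 members had a p under 0.05 in the higher direction and 7 in the lower, beside 1122 and 878 of all 15154 genes. The median log2 fold change was -0.04, against 0.00 for all tested genes. STAT2 went from 59.6 ± 1.32 CPM in UVA to 48.0 ± 3.29 CPM in CT (SD, n = 3), a log2 fold change of -0.31 (SE 0.06, adjusted p = 0.00648). CT 2 was its lowest library, and without it the adjusted p was 0.0584 and no member was called. IFIT2 gave -0.07 (SE 0.05, adjusted p = 0.594), PARP9 -0.14 (SE 0.06, adjusted p = 0.3), SAMD9L -0.26 (SE 0.16, adjusted p = 0.55) and XAF1, an apoptosis adaptor, -0.56 (adjusted p = 0.336). A p that missed the threshold does not show that CT and UVA were alike for these genes.

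Over all members, the libraries were compared by the median log2 difference of the 47 tested members from their NC mean. The 3 NC libraries gave -0.10, 0.02 and 0.07, the UVA libraries -0.21, -0.20 and -0.12, and the CT libraries each -0.18. All irradiated libraries thus lay below all controls, and NC 1 lay nearest to them. NC 1 was the lowest control for 35 of the 47 members, against 8 for NC 2 and 4 for NC 3. Over all tested genes, the same median lay between 0.00 and 0.01 in every library.

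**Figure D4:**
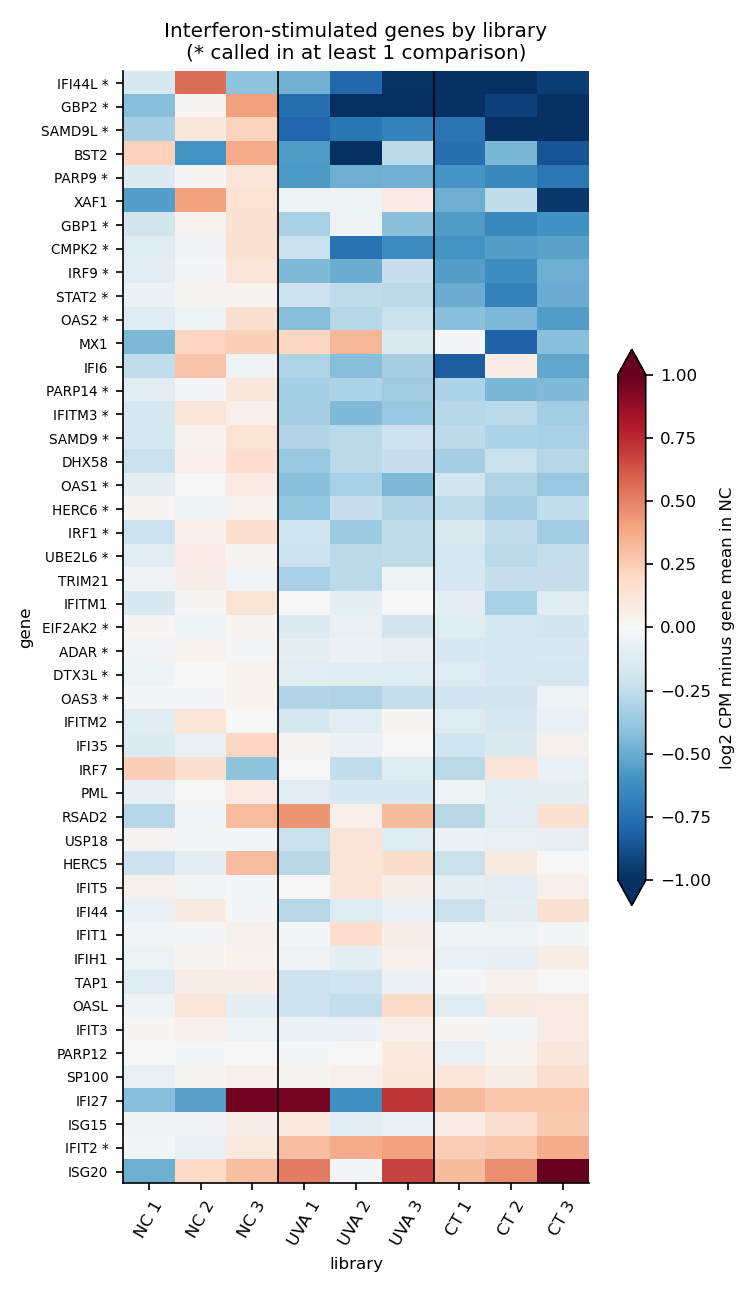
Heat map of log2 CPM minus the mean in NC (colour) for the 47 tested members (y axis, with a star for those called in at least 1 comparison) in the 9 libraries (x axis). Blue cells prevail in the 6 irradiated libraries, whose medians over the members lie between -0.21 and -0.12, and IFIT2 near the bottom is red in all 6.

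Per length of annotated exon, the levels of the members spanned a wide range in the controls. IFITM3 was highest, at a mean of 109 CPM per kilobase in NC, followed by IFITM1 at 57.8, DTX3L at 47.8, IFIT3 at 47.1, IFIT2 at 43.5 and ADAR at 42.3 CPM per kilobase. After UVA, IFITM3 stood at 82.9 and IFIT2 at 55.9 CPM per kilobase. The classical interferon reporters were low, with ISG15 at 8.58, MX1 at 0.33, IFI27 at 0.15 and IFI44L at 0.08 CPM per kilobase in NC. The length joins all annotated exons of a gene, such as 10240 bases for IFI44L, 8616 for MX1 and 1348 for IFITM3. It can exceed the length of the transcripts present, and the order of the members depends on it.

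The interferon genes themselves were close to absent from these libraries. Of 10 ligands examined, IFNA2, IFNK, IFNW1, IFNG and IFNL2 had 0 counts in all 9 libraries, where 3 counts would correspond to 0.140 to 0.183 CPM. IFNA1, IFNB1 and IFNL1 had 1 to 3 counts in all libraries together. IFNL3 had 6 counts, all in UVA 3. IFNE, an epithelial type I interferon, was the single ligand tested, at 18 to 38 counts per library, and was not called in any comparison.

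Further genes of the pathway were read from lists chosen by function. Of 6 receptor chains, 1 was higher and 1 lower after UVA (16.7% each), beside 10.5% higher and 10.6% lower across all tested genes. IFNGR2, the signalling chain of the interferon gamma receptor, rose by 0.34 on the log2 scale, from 28.8 ± 1.70 CPM to 36.3 ± 1.65 CPM (SD, n = 3, adjusted p = 0.00198). IL10RB, the shared chain of the interferon lambda receptor, fell by 0.38 on the log2 scale, from 34.4 ± 3.80 CPM to 26.4 ± 1.01 CPM (adjusted p = 0.00266). Both kept their direction in CT against NC, at 0.45 and -0.39. The other chains, IFNAR1, IFNAR2, IFNGR1 and IFNLR1, were not called in any comparison.

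Among the kinases, STATs and IRFs outside the member list, JAK1 fell in CT against NC by 0.17 on the log2 scale (adjusted p = 0.0042) and STAT3 fell by 0.15 (adjusted p = 0.0149), and IRF3 rose by 0.19 (adjusted p = 0.0163). The STAT3 call was lost without NC 3, CT 1 or CT 2 (up to 0.0697) and the IRF3 call without NC 3 or CT 3 (up to 0.0742). These 3 genes were not called in UVA against NC.

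Among 10 tested feedback inhibitors, SOCS2 was higher in UVA than in NC, by 0.61 on the log2 scale (adjusted p = 0.0018), whereas PIAS1 and PIAS3, inhibitors of STAT binding to DNA, fell (-0.31 and -0.23). The PIAS1 call held in all alternative fits, and the PIAS3 call (adjusted p = 0.0378) was lost without NC 2, NC 3, UVA 2 or UVA 3, under DESeq2 and with a replicate block (up to 0.160). Of 15 tested nucleic acid sensors and adaptors, 1 was higher (6.67%) and 2 were lower (13.3%) after UVA, beside the same shares of all tested genes. SAMHD1, which depletes deoxynucleotides, fell by 0.60 on the log2 scale, from 54.3 ± 2.93 CPM to 35.7 ± 0.36 CPM (SD, n = 3, adjusted p = 2.91e-06). TRAF3, a signalling adaptor, rose by 0.53 on the log2 scale.

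Antigen presentation genes, many of them interferon targets, fell in part. Of 15 tested, 7 were lower and 0 higher after UVA by edgeR, beside 10.6% and 10.5% of all tested genes, and 0 were higher by DESeq2 or limma-voom. Before adjustment, 10 had a p under 0.05 in the lower direction and 0 in the higher, beside 2510 and 2541 of all 15154 genes. The median log2 fold change was -0.19. TAPBP (tapasin) gave -0.28 (adjusted p = 0.00186), the peptidase ERAP1 -0.23 (adjusted p = 0.00268), the proteasome activator subunit PSME1 -0.19 (adjusted p = 0.00412), and ERAP2 -0.37 (adjusted p = 0.00536). In CT against NC 8 of the 15 were lower, beside 14.2% of all tested genes.

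In a wider list of 40 tested interferon targets, 20 were lower and 1, PNPT1, was higher after UVA, beside 10.6% lower and 10.5% higher across all tested genes, with a median log2 fold change of -0.25. TRIM5, a restriction factor for retroviral capsids, gave -0.50 (adjusted p = 1.19e-05), PLSCR1 gave -0.37 (adjusted p = 1.69e-05), GBP4 gave -0.48 (adjusted p = 0.000291) and LY6E gave -0.35 (adjusted p = 0.00032). In CT against NC, 22 were lower and 1 was higher, beside 14.2% and 15.7% of all tested genes.

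The same list held 3 calls among its 40 tested genes in CT against UVA, all lower (7.5%), beside 0.614% lower across all tested genes. WARS1, the tryptophanyl-tRNA synthetase induced by interferon gamma, measured 275, 276 and 272 CPM in UVA and 212, 216 and 198 CPM in CT, with 307, 298 and 285 CPM in NC. CT lay below both other groups, and the log2 fold change against UVA was -0.40 (SE 0.04, adjusted p = 8.16e-06), a call that held in all alternative fits. SLFN5 gave -0.20 (adjusted p = 0.0135), lost without UVA 2, UVA 3 or CT 3 with an adjusted p of up to 0.105. APOL6 gave -0.26 (adjusted p = 0.0229), lost without UVA 1, UVA 2 or CT 3 with an adjusted p of up to 0.135. The other pathway lists held 0 calls in CT against UVA by edgeR, DESeq2 or limma-voom. At an unadjusted p under 0.05 they held 2 higher and 3 lower of 15 sensors and adaptors, and 3 lower of 9 kinases, STATs and IRFs. Across all 15154 tested genes, 1122 were higher and 878 lower at that p.

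**Figure D5:**
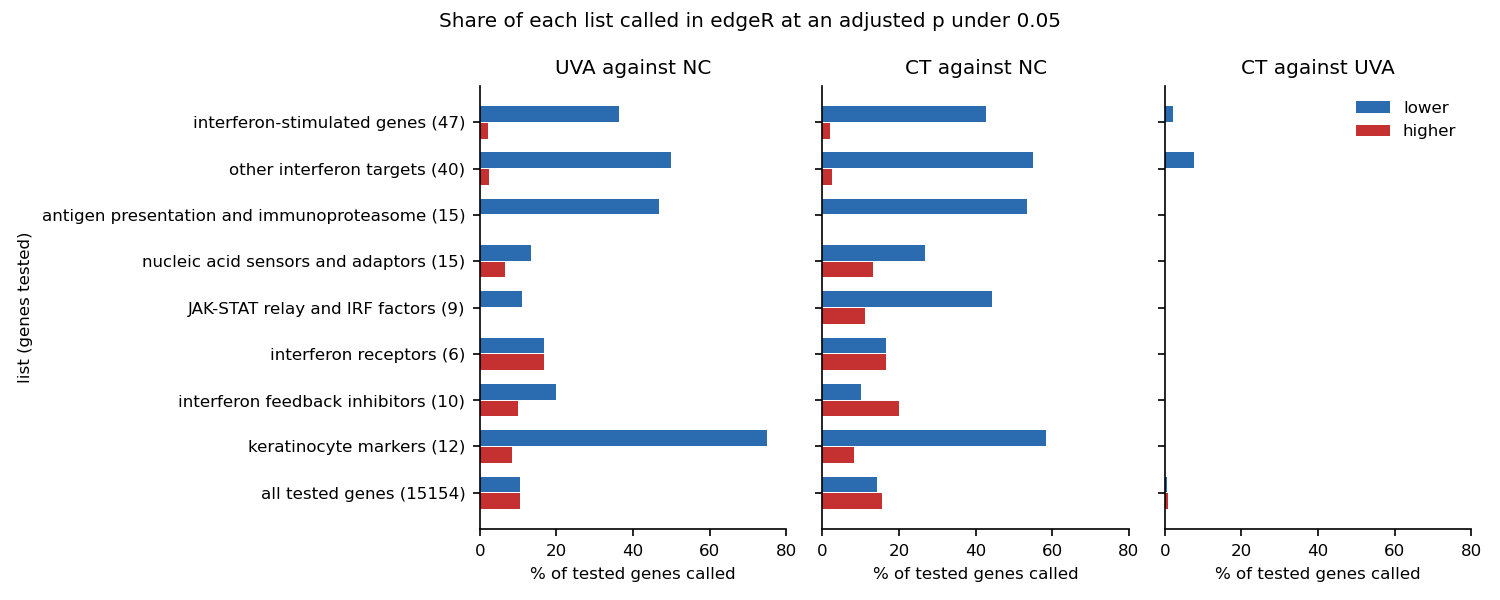
Percent of tested genes called lower and higher (bars from 0) for the members, each pathway list with at least 6 tested genes, the keratinocyte markers and all tested genes in the 3 comparisons. In UVA against NC, 36.2% of the members were lower and 2.13% higher, beside 10.6% and 10.5% of all tested genes.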

How the data were processed

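RNA was sequenced from 9 HaCaT libraries (3 groups of 3). The authors deposited a table of raw read counts per gene, made from poly(A)-enriched libraries; their processing notes name bcl2fastq, fastp 0.23.2 and GRCh38. For the aligner, the counter and its use of strand the sources used here give no name. Rows were named by gene symbol. Counts were analysed with edgeR 4.0.16 in R 4.3.3 by TMM scaling, filterByExpr and a robust quasi-likelihood fit over all 9 libraries. A gene was called higher or lower at a p under 0.05 after Benjamini-Hochberg adjustment over all 15154 genes tested. SE values were obtained by dividing the size of the log2 fold change by the root of its F statistic. CPM used TMM effective library sizes, and log2 CPM a prior count of 2. Total counts per library ranged from 16390289 to 21971215, and the common biological coefficient of variation was 0.0584.

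The members and lists were chosen with earlier results of these data known. Full values are given for the 12 members with the smallest adjusted p among the 21 called in any comparison, and for the 4 most abundant members without a call. From each pathway list up to 4 called genes are named for a comparison, apart from genes named after their values were seen. GBP2, DTX3L, IRF1, OAS2, CMPK2, EIF2AK2, UBE2L6, HERC6, PNPT1, TNFSF10 and IFNL3 were named after their values were seen. Alternatives were DESeq2 1.42.0, limma-voom (limma 3.58.1), RLE scaling, library size alone, no filter, at least 10 counts in every library, the compared groups alone, a replicate block, other thresholds, and each library left out. Gene coordinates, exonic lengths and overlaps came from GENCODE v29 on GRCh38, and promoters from RefSeq on GRCh38.p14. The fit was tested on simulated data. The replicate libraries differed from each other by more than sampling noise (chi-square over degrees of freedom 2.78 to 7.26). Some genes of the pathway lists are not reported here.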

Additional observations from a re-analysis of the deposited data

How the results depend on the processing

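Against NC, UVA gave 17 lower members, and leaving out 1 library at a time gave 11 to 18. The 11 came without NC 3, beside 6.93% of all tested genes, and the 18 without NC 1, beside 10.8%. At an adjusted p under 0.01 the count was 10, beside 5.78% of all tested genes. CT against NC gave 20 lower members, 16 to 22 with 1 library left out. The 16 came without NC 3, beside 10.4% of all tested genes, and the 22 without NC 1, beside 14.1%. The single lower member in CT against UVA (STAT2) was lost without CT 2, so the range was 0 to 1. When calls instead required a change of more than 2-fold and p under 0.05 before adjustment, UVA against NC gave 0 higher and 1 lower, CT against UVA gave 0 lower, and CT against NC gave 0 higher and 3 lower, beside 1.23% lower of all genes in UVA against NC, 0.422% in CT against UVA and 1.81% in CT against NC, since most member changes were smaller than that fold. The lower counts in UVA against NC and CT against NC were 15 and 19 with DESeq2, 15 and 20 with limma-voom, 15 and 22 with library size alone, and 14 and 20 without the filter. In the same order, the lower shares of all tested genes were 9.69% and 12.8%, 10.3% and 14.2%, 10.2% and 15.4%, and 5.77% and 7.42%. No member changed sign in a comparison in which it was called. The same replicate number did not mark libraries that deviated together (correlations of residuals -0.048 to 0.028). A replicate block gave 1 higher and 14 lower members in UVA against NC, beside 9.1% and 9.39% of all tested genes. It gave 0 and 1 in CT against UVA, beside 0.739% and 0.376%, and 1 and 19 in CT against NC, beside 14.4% and 13%. TNFSF10, a death ligand on the wider target list, gave a log2 fold change of -1.48 after UVA (adjusted p = 0.0123), lost under the block and without UVA 2 or UVA 3 (up to 0.0541). Members with few counts per library, such as IFI27, IFI44L and ISG20, had SE values of 0.34 to 0.52 on the log2 scale. Differences larger than these SE values could still miss the threshold at this depth. IFI44L in UVA against NC (-0.93, adjusted p = 0.167) and ISG20 in CT against NC (0.72, adjusted p = 0.127) were not called.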

Other observations

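Ratios between members of 1 family were read within each library, where the scaling of the library cancels. The ratio of IFIT2 to IFIT1 counts was 1.34 to 1.44 in NC, 1.61 to 1.77 in UVA and 1.69 to 1.84 in CT. IFIT2 to IFIT3 was 1.33 to 1.59 in NC, 1.84 to 1.93 in UVA and 1.69 to 1.77 in CT. In both ratios the control libraries lay below all irradiated libraries. SAMD9L to SAMD9 was 0.133 to 0.158 in NC, 0.105 to 0.107 in UVA and 0.0788 to 0.107 in CT, with the controls above all irradiated libraries. OAS3 to OAS2 was 9.50 to 11.1 in NC, 10.3 to 11.4 in UVA and 12.2 to 14.8 in CT, so the controls and UVA overlapped and CT lay above both. These ratios were computed after the genes' values were seen and carry no test. They show unequal change within a pair and not which member changed.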
